A study of Mus musculus with 56 samples.

Results

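The effect of a glucokinase activator (GKA) was examined in livers heterozygous at residue 446 of GKRP, the regulatory protein of glucokinase and the product of Gckr. The 8 livers labelled GKRP-446P/L with 3mg/kg GKA (mice 29 to 36) were compared with the 8 labelled GKRP-446P/L alone (mice 21 to 28), 16 of the 56 livers sequenced in all. These mice carried 1 proline and 1 leucine allele at that residue (PL) through a germline knock-in, so that every cell that makes GKRP made both forms. All 16 were adult males and had the HFHSD, a diet of 45% fat with 10% glucose and 5% fructose as added sugar, for 20 weeks. The treated mice had the GKA in that diet at a labelled dose of 3 mg/kg, and how long they had it, or which compound it was, was not given in the sources used here. The remaining groups held mice with proline on both alleles (PP) or leucine on both (LL), without or with GKA. Litter, cage, time of day at harvest and sequencing batch were not given in the sources used here. The p-values set the group difference against the spread between livers, which are taken as independent. A factor shared within a group could not be told apart from GKA.

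Glucokinase (GK) phosphorylates glucose in hepatocytes, and GKRP binds and inhibits it and holds it in the nucleus when glucose is low. A GKA binds GK itself and raises its activity, so that more glucose 6-phosphate is formed. Raised glucose phosphates activate the transcription factor ChREBP (gene Mlxipl), which drives genes of glycolysis and lipogenesis. Cholesterol synthesis genes are instead controlled mainly by SREBP2 (gene Srebf2), which is released from the endoplasmic reticulum when sterols are low.

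Each library held 5672200 to 8093400 estimated reads. Total reads averaged 7021590 ± 786695 without and 6430160 ± 723435 with GKA (SD, n = 8 each; exact two-sided permutation p = 0.146). No library stood apart by its mean rank correlation with the other 15, which ran from 0.938 (mouse 32) to 0.958. The quality weight that limma voom gave each library was lowest in mouse 32, at 0.59. It was 0.68 and 0.69 in mice 35 and 29 and 0.88 to 1.66 in the others. On the first principal component of all genes tested (18.9% of variance) mouse 32 lay furthest out, at −38.0, with mouse 33 at −34.8. Hepatocyte markers were abundant in each liver: albumin (Alb) ranged from 10779 to 38200 TPM without and from 14054 to 39620 TPM with GKA. The knock-in alleles could not be checked from counts per gene.

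No gene passed the test of the GKA effect in PL livers. Of 10399 genes tested with edgeR's quasi-likelihood test, 0 were differentially expressed (0.0%; adjusted p under 0.05 and a change of at least 30%), and the smallest adjusted p was 0.879. At an unadjusted p under 0.05 there were 331 genes (3.18%), of which 153 were higher (1.47%) and 178 lower (1.71%) with GKA. No gene had all 8 treated livers above or all 8 below the untreated livers (0.0%). The values that follow therefore describe sizes and spread, and none is a differentially expressed gene by this test. All levels are CPM, gene counts scaled to a common library total after normalisation by the trimmed mean of M values (TMM), all changes are log2 fold changes of GKA over no GKA in PL livers unless another genotype is named, and each p is unadjusted unless it is called adjusted.

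**Figure D1:**
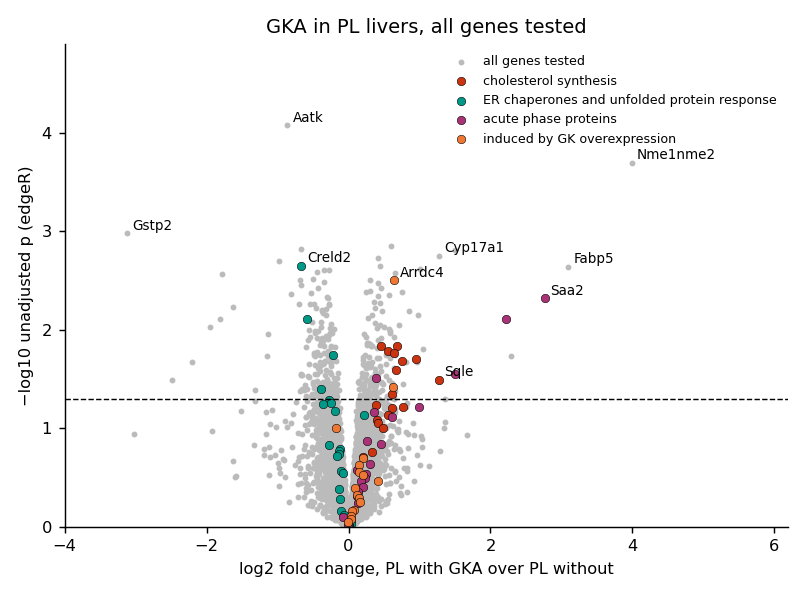
Each point is 1 of 10399 genes; the x axis is the log2 fold change of PL livers with GKA over PL livers without, and the y axis −log10 of the unadjusted edgeR p, with the dashed line at 0.05. The 20 cholesterol synthesis genes lie to the right of 0, the endoplasmic reticulum (ER) chaperone genes mostly to the left, and no gene passed after adjustment for multiple testing.

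Aatk, a membrane-anchored kinase, had the smallest p (ENSMUSG00000025375.17, GRCm39 chromosome 11, 119898131 to 119938014, minus strand). It ranged from 5.14 to 9.65 CPM (median 6.37) without and from 2.32 to 5.28 CPM (median 3.80) with GKA, a log2 difference of −0.87 ± 0.17 (SE; adjusted p = 0.879, edgeR). Of the treated livers, 7 lay below every untreated liver, and mouse 34 overlapped the untreated range. DESeq2 called this gene (log2 −0.86, adjusted p = 0.035), while log2(TPM + 1) values in limma gave −0.11, and at most 67 reads of it were counted in any liver. DESeq2 called 4 genes in all (0.017% of 23579; 1.69% at unadjusted p under 0.05), of which the other 3 were the processed pseudogenes Rpl10-ps1, Gm14586 and Gm2225 with no reads in at least 5 livers of each group. Reads of such copies cannot be told apart fully from those of their parent genes. Limma voom with sample quality weights called 1 gene (0.00962%; 3.73% at unadjusted p under 0.05), the pseudogene Gm29216.

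Among the other leading genes by p with an established symbol were genes that read sharing makes uncertain. Nme1nme2, a read-through of the nucleoside diphosphate kinase genes Nme1 and Nme2, was at 0 in 6 untreated livers and reached 43.2 CPM with GKA, yet the 3 genes summed gave 193 ± 24.3 CPM without and 189 ± 32.3 CPM with GKA (SD, n = 8 each; exact permutation p = 0.752). Gstp2, a glutathione transferase with the near-identical neighbour Gstp1, fitted −3.12 ± 0.80, and the Gstp genes summed gave 954 ± 426 and 849 ± 345 CPM (SD, n = 8 each; exact permutation p = 0.613). Both summed differences were smaller than the spread between mice.

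Cyp17a1, the steroid 17-alpha-hydroxylase, ranged from 5.52 to 23.5 CPM (median 18.0) without and from 15.1 to 79.2 CPM (median 33.8) with GKA. The log2 difference was 1.28 ± 0.35 (p = 0.00177), and 6 treated livers exceeded every untreated one. Naa20, a catalytic subunit of an N-terminal acetyltransferase, had 7 treated livers above the untreated range (0.60 ± 0.16, p = 0.0014). Dhx58, a cytosolic RNA sensor of the interferon system, was at 7.73 ± 1.16 CPM without and 10.3 ± 1.52 CPM with GKA (SD, n = 8 each; edgeR adjusted p = 0.999). On the lower side was Alas2, the erythroid form of the first enzyme of haem synthesis. It ranged from 79.5 to 102 CPM without and from 63.9 to 85.8 CPM with GKA. For Alas2, 5 treated livers lay below every untreated one (−0.28 ± 0.08), although the log2(TPM + 1) scale gave 0.02. Of the 5 red cell genes tested, Alas2 was the only lower one, and the list median was 0.37. Slc25a38, which carries glycine into mitochondria for haem synthesis, fitted −0.35 ± 0.10. The other higher genes among the 12 of smallest p were Med28 (0.44), Dynlt1f (1.01), Tada2a (0.65), Rsph3b (0.31) and Cpsf4 (0.42), of which Dynlt1f and Rsph3b have near-identical copies and Tada2a overlaps Acaca. The other lower ones were Zmiz1 (−0.35), Pias3 (−0.45), Noa1 (−0.51), Gdpgp1 (−0.68), Ndor1 (−0.42), Gtf2a1 (−0.30) and Camsap3 (−0.29). Further annotated entries named Ndor1 stayed below the filter on low counts, with at most 1.6 and 1.31 CPM in any liver.

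The regulatory protein's own gene did not pass the test. Gckr (ENSMUSG00000059434.11, GRCm39 chromosome 5, 31454787 to 31484658, plus strand) ranged from 143 to 216 CPM without and from 135 to 181 CPM with GKA, a difference of −0.10 ± 0.09 (95% interval −0.30 to 0.10). With effective transcript lengths in the model the Gckr value was −1.06, with an unadjusted p under 0.05. The share of Gckr reads assigned to Gckr-202, the most abundant of its coding transcripts, was 49.9% ± 10.4 without and 52.5% ± 10.8 with GKA (SD, n = 8 each; exact two-sided permutation p = 0.628, adjusted p = 0.943 over 6 quantities), and the retained-intron form Gckr-207 took 36.3% ± 9.19 and 34.2% ± 5.63. Of the hexokinases, Hk1 and Hk2 stayed below the filter on low counts, with at most 2.86 and 1.64 CPM in any liver, and Hkdc1 had no read.

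Of 17 genes that the study names as induced by GK overexpression in hepatocytes, 15 were higher with GKA (median log2 0.14; all genes tested, 52.3% higher and median 0.01) and 2 had p under 0.05. The mean log2 level of the 17 genes, set against the untreated mean, was −0.01 to 0.31 with and −0.38 to 0.33 without GKA. With scaling by library size alone 12 of 17 were higher, and 16 on log2(TPM + 1) values. In PP livers 11 of 17 were higher and in LL livers 12. The genes were measured in the same livers, so these counts are not independent observations. Arrdc4, an arrestin-domain protein of the Txnip family, ranged from 1.97 to 4.76 CPM (median 3.41) without and from 3.57 to 7.08 CPM (median 5.70) with GKA. All 8 treated livers exceeded the untreated mean and 5 exceeded every untreated liver (0.65 ± 0.19, p = 0.00315). G6pc1, the catalytic subunit of glucose 6-phosphatase, which releases free glucose, ranged from 91.2 to 206 CPM (median 151) without and from 125 to 519 CPM (median 191) with GKA. Mice 29 and 30, at 296 and 519 CPM, and mouse 32 set the upper end, and without mouse 30 the log2 difference went from 0.63 to 0.34 (p = 0.153). Pklr, the liver pyruvate kinase and a classic ChREBP target, had a median of 524 CPM without and 643 CPM with GKA (log2 0.20 ± 0.15).

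ChREBP itself was lower. Mlxipl ranged from 149 to 256 CPM without and from 120 to 204 CPM with GKA (−0.29 ± 0.13, p = 0.0392), and 10 of 16 fits without 1 mouse had p of 0.05 or more. In the list of ChREBP, sugar sensing and glycolysis genes, 15 of 23 were higher (median 0.11) and Mlxipl was the only one with p under 0.05. The gluconeogenesis list had 10 of 13 higher (median 0.06), with Pck1, the rate-limiting step, at 0.46 ± 0.28 (p = 0.12). The glycogen list had 9 of 15 higher (median 0.05) and none with p under 0.05.

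**Figure D2:**
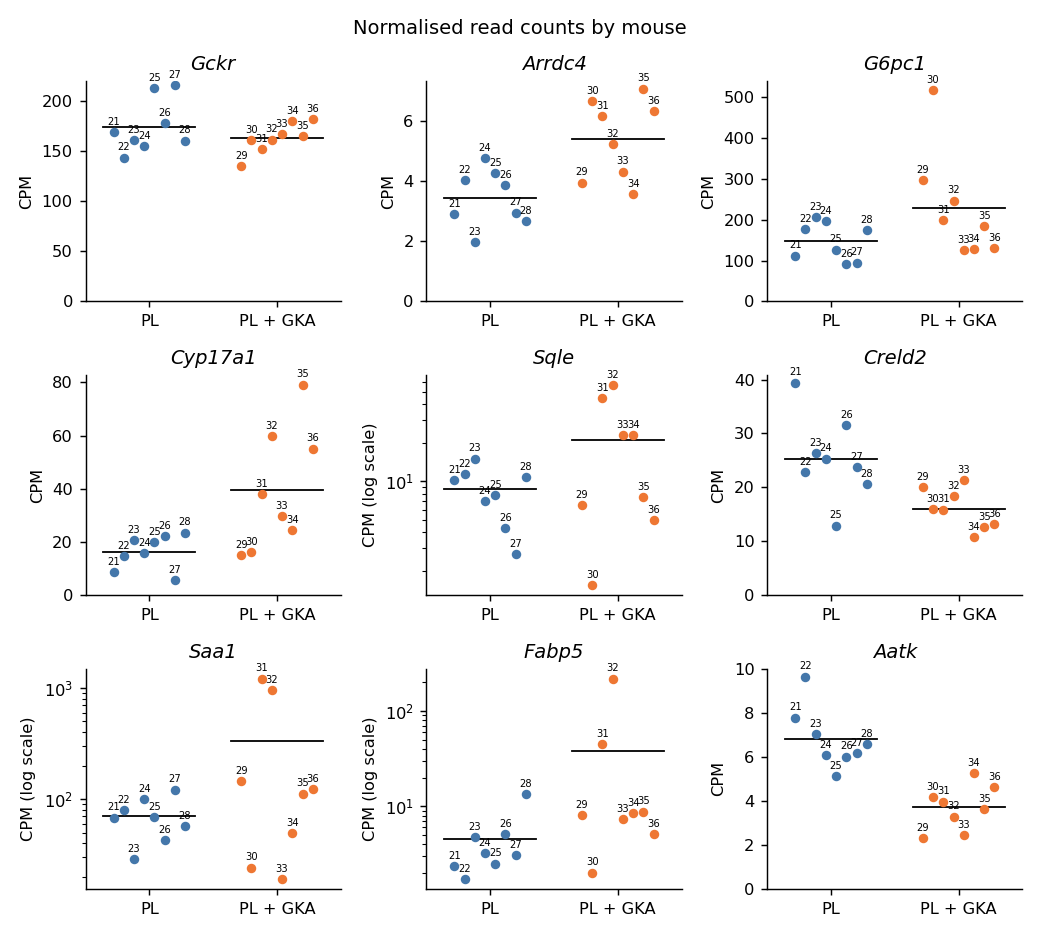
Each point is 1 mouse, labelled with its number; the y axis is CPM (log scale for Sqle, Saa1 and Fabp5), blue is PL without and orange PL with GKA, and the line is the group mean (n = 8 each). The 2 groups overlapped for Gckr, while Saa1 and Fabp5 were highest in mice 31 and 32 and Sqle in mice 31 to 34.

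The cholesterol synthesis genes were the list with the most members at p under 0.05. All 20 enzymes tested, from acetoacetyl-CoA thiolase to the last reductases, were higher with GKA, with a median log2 difference of 0.56 (all genes, 0.01) and the highest value at 1.28 (Sqle). Of the 20, 9 had p under 0.05, beside 3.18% of all genes tested. After adjustment over all genes each stood at 0.999.

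RefSeq promoter windows (build GRCm38.p6, the 250 bases before the start) are shown because sterol and ER genes carry short shared motifs there. A window was found for 15 of the 20 cholesterol synthesis genes, and CCAAT, on either strand, was in 14 of those 15 genes, against 40.8% of the 8023 tested genes with a window. TCANNCCAC, a form of the sterol regulatory element, was in 1 of the 15, Hmgcs1, against 4.14% of tested genes. These are matches of letters, and binding was not measured. In the 3 sequences that follow, read 5′ to 3′, the capitals mark CCAAT or its reverse ATTGG and, in Hmgcs1 alone, TCACCCCAC. Hmgcs1 lies at chr13:119690101-119690350 on the plus strand, Idi1 at chr13:8885356-8885605 on the plus strand, and Msmo1 at chr8:64733579-64733828 on the minus strand.
Hmgcs1: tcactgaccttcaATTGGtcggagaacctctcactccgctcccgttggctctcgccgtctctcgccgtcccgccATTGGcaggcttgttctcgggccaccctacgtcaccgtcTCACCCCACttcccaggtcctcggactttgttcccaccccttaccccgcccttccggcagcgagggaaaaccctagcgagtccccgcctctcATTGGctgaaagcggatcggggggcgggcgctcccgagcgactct
Idi1: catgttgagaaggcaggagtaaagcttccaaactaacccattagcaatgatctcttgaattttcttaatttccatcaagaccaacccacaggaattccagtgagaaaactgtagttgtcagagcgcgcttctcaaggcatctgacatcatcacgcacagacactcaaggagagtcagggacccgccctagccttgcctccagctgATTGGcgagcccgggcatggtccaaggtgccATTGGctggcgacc
Msmo1: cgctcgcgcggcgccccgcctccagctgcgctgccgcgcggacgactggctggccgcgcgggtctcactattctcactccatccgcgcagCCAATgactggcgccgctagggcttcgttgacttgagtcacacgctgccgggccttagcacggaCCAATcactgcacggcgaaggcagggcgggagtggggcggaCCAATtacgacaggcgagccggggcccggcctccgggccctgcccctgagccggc

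In the mevalonate part of the pathway, Hmgcs1, which makes HMG-CoA, ranged from 48.4 to 158 CPM (median 121) without and from 62.2 to 286 CPM (median 177) with GKA (0.61 ± 0.31, p = 0.0623). Pmvk, the phosphomevalonate kinase, ranged from 13.7 to 24.9 CPM without and from 9.75 to 59.0 CPM with GKA, and 6 treated livers exceeded every untreated one (0.69 ± 0.25, p = 0.0146).

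Idi1, the isopentenyl diphosphate isomerase (ENSMUSG00000058258.17, GRCm39 chromosome 13, 8935537 to 8942487, plus strand), ranged from 15.7 to 58.3 CPM (median 33.0) without and from 15.5 to 126 CPM (median 60.8) with GKA. It differed by 0.95 ± 0.37 (p = 0.02). Fdps, which makes farnesyl diphosphate, was at 132 ± 22.3 CPM without and 207 ± 112 CPM with GKA (SD, n = 8 each; log2 0.65 ± 0.25, edgeR adjusted p = 0.999), and the model with effective transcript lengths gave −0.35. Fdft1, squalene synthase, had 5 treated livers above the untreated range and kept p under 0.05 without any 1 mouse (0.56 ± 0.21).

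Sqle, squalene epoxidase, which starts the sterol branch (ENSMUSG00000022351.16, GRCm39 chromosome 15, 59186869 to 59203043, plus strand), ranged from 2.69 to 15.1 CPM (median 9.03) without and from 1.55 to 56.7 CPM (median 15.3) with GKA. Mice 31, 32, 33 and 34 stood at 44.9, 56.7, 23.1 and 23.0 CPM, above every untreated liver, while mouse 30 had the lowest value of the 16. The log2 difference was 1.28 ± 0.55 (p = 0.032), and without mouse 32 it was 0.89 (p = 0.108). Past squalene, the demethylation enzymes Cyp51 (0.67 ± 0.27), Msmo1 (0.62 ± 0.29), Nsdhl (0.76 ± 0.30) and Hsd17b7 (0.46 ± 0.17) had p under 0.05, with Cyp51 at −0.27 in the model with effective transcript lengths. Without 1 mouse, Msmo1 lost p under 0.05 in 10 of 16 fits, Sqle in 5 and Cyp51 in 3. Without mouse 32, Fdps was at 0.38 (p = 0.054), Nsdhl at 0.50 (p = 0.0705) and Idi1 at 0.76 (p = 0.0537). With effective lengths 14 of the 20 genes were higher, and 17 on log2(TPM + 1) values. Ebp, a later sterol isomerase, was nearer 0, at 0.13 ± 0.16.

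The same mice were high from gene to gene. Averaged over the 20 genes and set against the untreated mean, the log2 level was 1.06 in mouse 31, 1.33 in mouse 32, 0.88 in mouse 33 and 0.65 in mouse 34. It was 0.09 and 0.24 in mice 35 and 36, and −0.15 and −0.70 in mice 29 and 30, beside −0.38 to 0.27 in the untreated livers. Thus 4 treated livers lay above and 1 below the untreated range. Mice 31, 32 and 33 were each among the 4 highest of the 16 livers for 18 of the 20 genes and mouse 34 for 12, and mice 29 and 30 for none. The SD of this level was 0.68 with GKA and 0.25 without, and this difference in spread was not tested. Without 1 mouse the list median stayed between 0.43 and 0.67, and with limma voom quality weights, lowest for mouse 32, it was 0.41. In mice 31, 32 and 33 the 100 most abundant genes also took the largest shares of reads, at 67.9, 68.6 and 67.2%. The other treated livers were at 58.0 to 62.8% and the untreated livers at 57.5 to 65.2%. Major urinary protein (Mup) genes took 30.3, 28.5 and 26.5% of reads in these 3, against 4.67 to 16.6% in the other treated livers. Untreated livers were at 7.07 to 28.7%, a range that holds mice 32 and 33. The part of library composition in the cholesterol synthesis values was not tested.

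**Figure D3:**
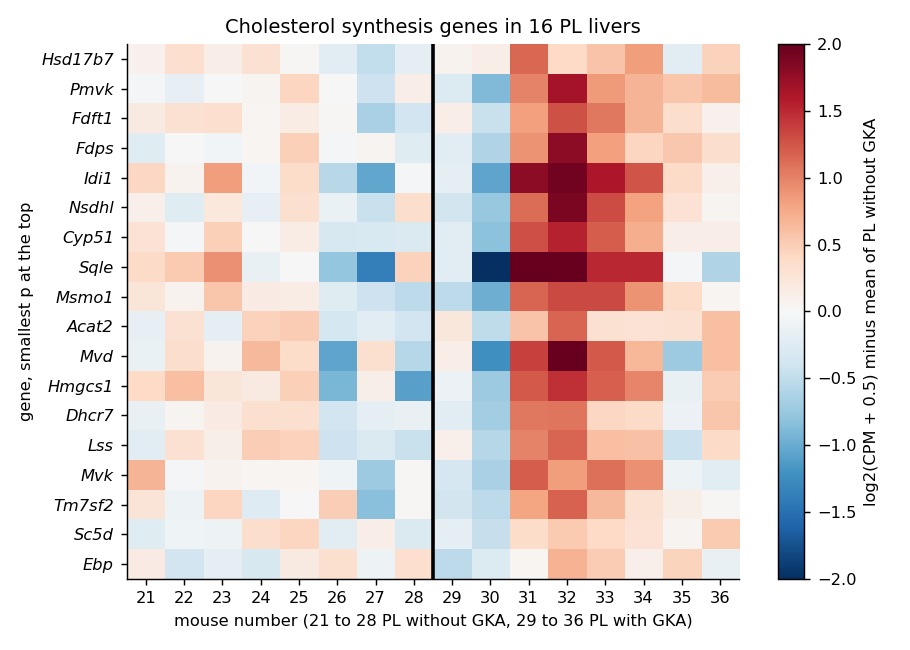
Rows are 18 of the cholesterol synthesis genes ordered by p and columns the 16 mice; colour is log2(CPM + 0.5) minus the mean of PL livers without GKA, from −2 (blue) to 2 (red). Mice 31 to 34 were red across nearly all rows, and mouse 30 was blue across most.

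Regulators of the pathway did not follow it as a group. Of 10 sterol regulation genes 6 were higher (median 0.07), and 0 had p under 0.05. Srebf2 was at 0.15 ± 0.12, its escort protein gene Scap at 0.00 ± 0.13, and the retention protein genes Insig1 and Insig2 at 0.25 ± 0.32 and −0.08 ± 0.15. Stard4, a sterol carrier, was at 0.18 ± 0.11, and Gpr146 and Mylip were at −0.19 ± 0.16 and 0.17 ± 0.26. Sterol export genes (4 of 10 higher, median 0.00) and bile acid genes (9 of 19 higher, median −0.01) centred on 0.

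In the lipogenesis list 16 of 17 genes were higher (median 0.34) and 2 had p under 0.05. The mean log2 level of the 17 genes, set against the untreated mean, was −0.52 to 1.12 with and −0.83 to 0.74 without GKA. Only mice 32 and 36, at 1.123 and 0.885, lay above the untreated range. In PP livers 14 of 17 were higher with GKA and in LL livers 13. Fads1, the delta-5 desaturase, ranged from 290 to 440 CPM without and from 320 to 580 CPM with GKA, with 5 treated livers above every untreated one (0.30 ± 0.12, p = 0.0237). Fads2, the delta-6 desaturase, was at 0.36 ± 0.17. Without 1 mouse, Fads1 had p of 0.05 or more in 2 of 16 fits and Fads2 in 10. Acss2, which makes acetyl-CoA from acetate, and the malic enzyme Me1 were at 0.58 ± 0.29 and 0.55 ± 0.29, and both were at 0.32 without mouse 32. Triglyceride synthesis genes had 6 of 12 higher (median 0.01). Genes of PPAR-alpha and fatty acid oxidation had 22 of 27 lower (median −0.07), with the carnitine carrier gene Slc25a20 at 67.3 ± 3.80 CPM without and 58.4 ± 5.92 CPM with GKA (SD, n = 8 each; log2 −0.21 ± 0.07, edgeR adjusted p = 0.999). The mean log2 level of the 27 genes, set against the untreated mean, was −0.52, −0.87 and −0.51 in mice 31, 32 and 33. These mice were also high in cholesterol synthesis genes. The level was −0.01 to 0.22 in the other 5 treated livers and −0.43 to 0.52 in the untreated livers. Its group median was −0.01 without and 0.01 with GKA. Without 1 mouse the list median ran from −0.14 to −0.03. On the log2(TPM + 1) scale, where the median of all genes moved to 0.15, this list had a median of 0.13 and Slc25a20 was at 0.19.

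ER chaperone and unfolded protein response genes lay lower. Of 25 tested, 19 were lower with GKA (median −0.13) and 4 had p under 0.05. The number higher with GKA was 6 of 25 in PL, 4 of 25 in PP (median −0.05) and 7 of 25 in LL livers (median −0.06). Creld2, an ER chaperone of the stress response, ranged from 12.9 to 39.5 CPM (median 24.5) without and from 10.7 to 21.4 CPM (median 15.9) with GKA, and all 8 treated livers lay below the untreated mean (−0.66 ± 0.19, p = 0.00224). Sdf2l1, a partner of ER chaperones, ranged from 10.7 to 29.4 CPM without and from 7.24 to 15.9 CPM with GKA (−0.58 ± 0.19, p = 0.00778). The disulfide isomerase gene Pdia3 was at −0.22 ± 0.08 and Syvn1, the ubiquitin ligase of ER-associated degradation, at −0.39 ± 0.18. Without 1 mouse, Syvn1 had p of 0.05 or more in 8 of 16 fits and Creld2, Sdf2l1 and Pdia3 in 0. Each of these genes had its largest p without untreated mouse 21 (edgeR p = 0.104 for Syvn1 and 0.0412 for Pdia3). The list median ran from −0.16 to −0.10 without 1 mouse. On the log2(TPM + 1) scale the list median was 0.03 against 0.15 for all genes, and Syvn1 was at 0.03. Cytosolic heat-shock genes had 13 of 19 lower (median −0.05), with Hsph1 at −0.35 ± 0.12 (p = 0.00678).

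The ER stress response element is 19 letters long, CCAAT and CCACG with 9 free bases between, and so holds a CCAAT. It was found on either strand in 8 of the 24 ER genes with a RefSeq window, Creld2 and Syvn1 among them, against 0.187% of tested genes. In these 2 windows (GRCm38.p6), at chr15:88819396-88819645 for Creld2 and chr19:6046326-6046575 for Syvn1, both on the plus strand, the capitals mark the element, which runs on the opposite strand in Creld2.
Creld2: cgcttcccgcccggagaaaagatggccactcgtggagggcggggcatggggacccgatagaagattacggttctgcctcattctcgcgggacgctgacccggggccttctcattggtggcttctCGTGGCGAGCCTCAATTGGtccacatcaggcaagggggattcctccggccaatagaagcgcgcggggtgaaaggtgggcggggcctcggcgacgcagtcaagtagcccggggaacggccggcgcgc
Syvn1: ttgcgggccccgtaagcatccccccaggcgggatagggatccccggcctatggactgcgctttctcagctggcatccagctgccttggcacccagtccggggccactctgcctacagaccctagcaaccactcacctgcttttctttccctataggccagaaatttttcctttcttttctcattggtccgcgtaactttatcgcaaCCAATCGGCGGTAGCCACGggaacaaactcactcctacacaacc

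Acute phase genes were high in mice 31 and 32. Saa1, a serum amyloid A protein secreted in inflammation, ranged from 29.0 to 121 CPM (median 68.4) without GKA, and stood at 1210 and 953 CPM in mice 31 and 32 with GKA, and at 19.1 to 145 CPM in the other 6. Saa2 followed (2.76 ± 0.86, p = 0.00482), as did Lcn2, an iron-siderophore binding protein, which went from 1.51 ± 0.63 to 0.88 without mouse 31 (p = 0.139). Saa1 and Saa2 are near-identical, and summed they had 110 ± 51.1 CPM without and 598 ± 890 CPM with GKA (SD, n = 8 each; exact permutation p = 0.163). With sample quality weights in limma voom, Saa1 and Saa2 were at 0.63 and 0.79. Of 19 acute phase genes 17 were higher (median 0.27) and 4 had p under 0.05, the fourth being Serpina3n at 0.38 ± 0.16. Without mouse 31 Serpina3n was at 0.23 (p = 0.0887), and the list median at 0.12.

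Fabp5, a fatty acid binding protein of skin, macrophages and fat, ranged from 1.73 to 13.5 CPM (median 3.14) without GKA. With GKA mice 31 and 32 stood at 44.9 and 219 CPM and the other 6 between 2.01 and 8.81 CPM. The log2 difference of 3.09 ± 0.87 was 1.47 without mouse 32, and DESeq2 called it when fitted to all 6 groups (log2 3.07, adjusted p = 0.00287) but not when fitted to the PL livers alone (log2 1.33). Ighm, the immunoglobulin M heavy chain, had 7 treated livers between 13.8 and 53.0 CPM, above every untreated liver, and mouse 30 at 2.17 CPM below them all (1.495 ± 0.401). The light chain gene Igkc was at 0.71 ± 0.49, and at 0.12 without mouse 36 and −0.43 with effective transcript lengths, and the 7 B cell markers summed to 13.3 to 26.2 CPM without and 6.04 to 83.5 CPM with GKA. In bulk liver, a change in the number of cells of a type and a change in RNA per cell cannot be told apart.

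All 14 macrophage markers tested were higher (median 0.30), none with p under 0.05, and without mouse 29 the median was −0.01. The 19 markers summed to 155 to 537 CPM without and 278 to 1011 CPM with GKA, mouse 29 being the highest. T and NK cell markers summed to at most 4.26 CPM and neutrophil markers to at most 3.68 CPM in any liver. Red cell genes, of which 4 of the 5 tested were higher with GKA, summed to at most 1174 CPM, in mouse 35. The fat list summed to 2841 to 4201 CPM without and 869 to 4555 CPM with GKA, nearly all of it Car3, a carbonic anhydrase that liver also makes, which was lowest in mice 31 and 32 at 869 and 1167 CPM. Its other members Adipoq, Lep and Adig had no read and the rest at most 2.43 CPM. The pancreas list summed to 12.0 to 50.0 CPM, nearly all of it Cela1, with no read of Prss2, Cpa1, Ctrb1, Pnlip or Amy2a5, and the muscle list to at most 3.29 CPM, with no read of Acta1, Ckm or Tnnt3. The part of these cell types in the results was not tested.

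Other lists held few genes with p under 0.05. Gdf15, a stress-induced hormone, ranged from 1.07 to 14.5 CPM without and from 1.24 to 4.50 CPM with GKA (−1.13 ± 0.40, p = 0.011) and stayed inside the untreated range in each treated liver. Tat, tyrosine aminotransferase, and Glul, glutamine synthetase, were at 0.42 ± 0.19 and 0.25 ± 0.12, and Lipe, hormone-sensitive lipase, was at −0.35 ± 0.16; without 1 mouse these had p of 0.05 or more in 8, 12 and 10 of 16 fits. Immediate early genes had 7 of 9 lower (median −0.16) and none with p under 0.05, with 8 of 9 higher on the log2(TPM + 1) scale. Clock genes had 8 of 17 higher (median 0.00) and none with p under 0.05. The first principal component of the clock genes, 49.2% of their variance, averaged −0.00 ± 1.22 without and 0.00 ± 0.81 with GKA (SD, n = 8 each; exact permutation p = 0.991).

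**Figure D4:**
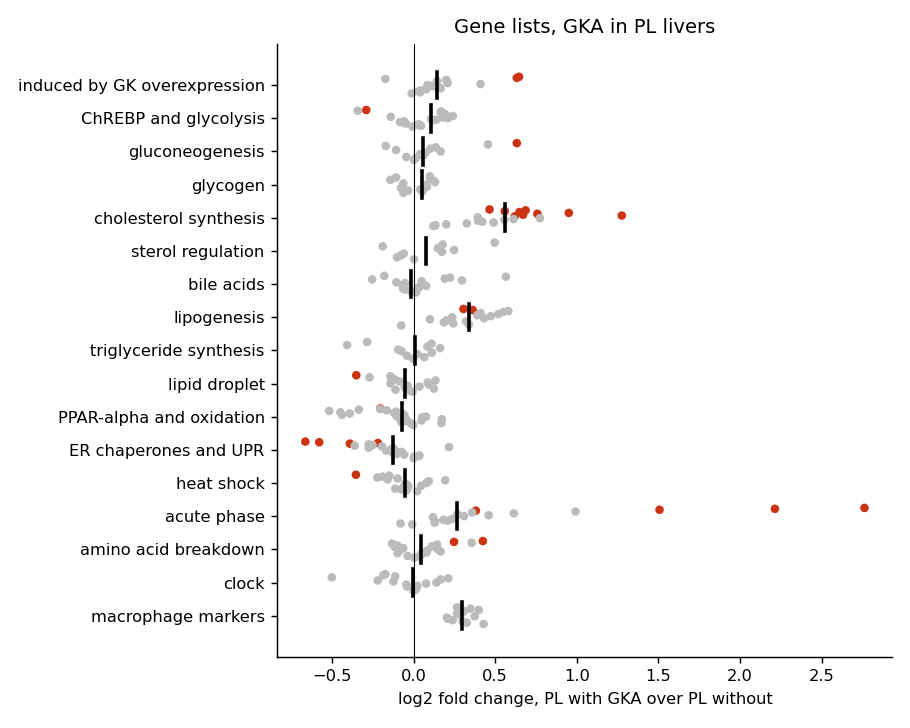
Each point is 1 gene of the list named on the y axis and the x axis is its log2 fold change, PL with GKA over PL without; red points have unadjusted p under 0.05, grey points do not, and the bar is the list median. Cholesterol synthesis had a median of 0.56 with every point to the right of 0, and ER chaperones had a median of −0.13.

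Whether GKA acted differently in PL livers was tested as the difference of its effects between genotypes. PP mouse 7 was left out, as its expression profile stood apart in the study. Against PP (9 mice without and 10 with GKA) 0 of 11152 genes passed (0.0%), with 374 at p under 0.05 (3.35%; 1.85% higher in PL). Against LL (10 and 10 mice) 0 of 11164 passed (0.0%), with 442 at p under 0.05 (3.96%; 1.86% higher in PL). DESeq2 gave 3 and 1 genes (0.0115% and 0.00383%), all pseudogenes. Within PP and LL livers the test of GKA itself called 0 genes (0.0%) in each, with 3.56% and 6.15% at p under 0.05. The smallest p against PP belonged to Cdc40, Fbxo33 and Shb with a higher effect in PL and Mtnr1a, Heyl and Tmc6 with a lower one. Against LL they were Cyp2b13, Cpsf4 and Cnot10, and Gdpgp1, Mup10 and Trim12c. Cyp2b13 reached at most 3.25 CPM in any PL liver and was below the filter on low counts there, and untreated LL livers had 3.21 ± 3.5 CPM (SD, n = 10). Mup10 belongs to a family of near-identical genes and was at 1649 ± 4768 CPM in treated LL livers (SD, n = 10).

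For the cholesterol synthesis list the median GKA effect was 0.56 in PL, −0.01 in PP and 0.17 in LL livers. The effect in PL was above that in PP for 19 of 20 genes, 6 with p under 0.05. It was above that in LL for 20 of 20, 3 with p under 0.05. Of the 10399 genes tested in PL livers, the PL effect was above that in PP for 5196 and in LL for 5245. Of these 10399 differences, 3.23% against PP and 3.77% against LL had p under 0.05. The 20 genes were mostly high in the same treated PL livers, so their counts are not independent observations. Values without 1 mouse are not given for these counts. Idi1 differed most clearly from PP, by 1.09 ± 0.40 (p = 0.0102, adjusted p = 1.0), with −0.14 ± 0.15 in PP and 0.36 ± 0.19 in LL. Sqle was at −0.15 ± 0.43 in PP and 0.90 ± 0.38 in LL, and its PL effect was higher by 1.42 ± 0.73 and 0.38 ± 0.71 (p = 0.0584 and p = 0.598). The level over the 20 genes, here on log2(CPM + 1) and set against untreated PL livers, was −0.10 ± 0.31 and −0.11 ± 0.22 in PP livers without and with GKA and −0.54 ± 0.25 and −0.34 ± 0.25 in LL livers (SD, n = 9, 10, 10 and 10). It was 0.42 ± 0.66 in treated PL livers, the widest spread of the 6 groups.

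**Figure D5:**
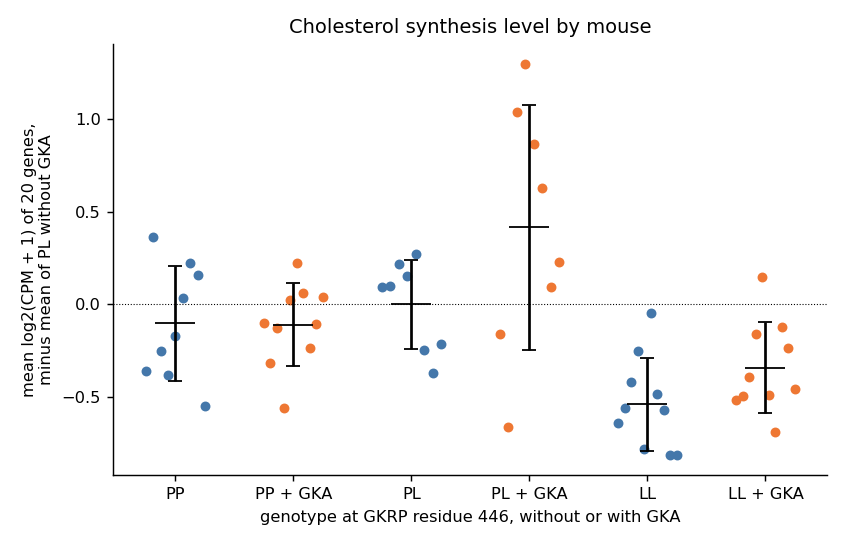
Each point is 1 mouse; the y axis is the mean log2(CPM + 1) of 20 cholesterol synthesis genes minus the mean of PL livers without GKA, and bars are mean and SD. PL livers with GKA spread from −0.67 to 1.301, against −0.37 to 0.27 in PL livers without.

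Arrdc4 was at −0.02 ± 0.19 in PP and 0.03 ± 0.12 in LL livers, and its PL effect was higher by 0.67 ± 0.27 and 0.62 ± 0.22 (p = 0.0184 and p = 0.0075, adjusted p = 1.0 and 1.0). Saa2 and Fabp5 were at −0.26 ± 0.50 and 0.11 ± 0.34 in PP livers and at 0.64 ± 0.39 and 1.12 ± 0.41 in LL livers. Creld2 was at −0.51 ± 0.33 in PP and −0.10 ± 0.34 in LL livers, and its PL effect minus these was −0.16 ± 0.42 and −0.56 ± 0.43 (p = 0.713 and p = 0.202).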

How the data were processed

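Liver RNA of 16 PL mice was compared, 8 with GKA and 8 without. The authors used Trizol and RNeasy extraction, ran FastQC, and quantified untrimmed reads with Salmon 1.4.0 against GRCm39 transcripts. The deposited values are estimated counts (expected counts) and TPM per transcript, and effective length. Here 98.8% of transcripts, with 99.8 to 99.9% of reads, were matched to GENCODE vM39 genes and estimated counts were summed per gene and rounded. The main test was edgeR 4.0.16 quasi-likelihood with TMM and filterByExpr in R 4.3.3, adjusted by Benjamini-Hochberg. A gene was called at adjusted p under 0.05 and a fold of at least 1.3 or at most 0.7. The authors used DESeq2, here an alternative (1.42.0), with limma 3.58.1. Standard errors are the log2 change over the root of F. The edgeR fit was tested on simulated data. Single values had exact permutation tests over 12870 splits.

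Members and lists were chosen with earlier results of these data known. Named genes were Gckr, the cholesterol synthesis and sterol regulation lists, up to 4 of smallest p from each other list, the 12 higher and 12 lower genes of smallest p, and genes called by another tool, and some of these genes are not reported here. Marker sums count all list genes. In each group every pair of libraries differed beyond counting noise (chi-square per degree of freedom at least 24.7). Counts of low genes carry counting error, and genes that share reads or overlap cannot be separated fully. Promoter letters are from RefSeq. The deposited TPM depends on the transcript a read was assigned to.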

Additional observations from a re-analysis of the deposited data

Results flagged for a closer look

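In 8 of 80 groups of 8 livers examined, 1 mouse lay apart from the others by its gap over the group's range (above 0.526). This cut-off assumes normally distributed values. Some genes examined were chosen by small p, and the groups share mice, so no chance rate is set beside the count. With GKA the mice apart were mouse 32 for Fabp5 (218.9 CPM, others 2.01 to 44.9) and Fdps (451.6 CPM, others 85.3 to 243.8), and mouse 30 for G6pc1 (519 CPM, others 125 to 296.5). Mouse 29 was apart for the macrophage list level (1.55 on the log2 scale, others −0.27 to 0.41) and mouse 31 for total reads (8093400, others 5672200 to 6495600). Without GKA they were mouse 28 for Fabp5 (13.5 CPM, others 1.73 to 5.09), mouse 25 for Fdps (181.7 CPM, others 110 to 135.0) and mouse 22 for Gstp2 (141 CPM, others 2.13 to 51.0).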

How the results depend on the processing

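No paired analysis was possible, because the labels number the libraries in sequence and pair no treated mouse with an untreated one. The count of 0 called genes became 4 with DESeq2, 3 with DESeq2 on all 6 groups and 1 with limma voom quality weights (the pseudogene Gm29216), and 0 to 1 when each mouse was left out in turn (1 without mouse 35, the pseudogene Scp2-ps2); it was 0 with 10 other settings. The 331 genes at unadjusted p under 0.05 became 1026 with no filter on low counts and 1095 with effective transcript lengths in the model, and 266 to 431 without 1 mouse. The split of 153 higher and 178 lower became 66 and 190 with library size alone, 272 and 167 on log2(TPM + 1) values and 228 and 867 with effective lengths; the cause was not tested. The differences between PL and PP and between PL and LL went from 0 to 3 and to 1 genes with DESeq2, and stayed at 0 to 0 without any 1 mouse. The median of the cholesterol synthesis list was 0.41 to 0.60 under all other settings and 0.43 to 0.67 without 1 mouse. Of 50 named genes with p under 0.05, 7 values changed sign among 1443: Fdps (−0.35), Cyp51 (−0.27) and Tada2a (−0.16) with effective lengths, and Syvn1 (0.03), Slc25a20 (0.19), Alas2 (0.019) and Gtf2a1 (0.045) on log2(TPM + 1) values, while 199 lost p under 0.05. Single quantities gave, as differences without 1 mouse, −829000 to −449000 total reads, 0.55 to 1.13 percentage points of mitochondrial reads, −1.84 to 1.83 of Mup reads (on TPM −6.84 against 0.05, with mitochondrial reads at 8.32 against 0.86 and Gckr-202 at 12.0 against 2.59), 0.33 to 1.85 of the 100 most abundant genes, 0.63 to 5.64 of Gckr-202 and −0.29 to 0.23 of the clock component; only total reads without mouse 31 reached p under 0.05 (p = 0.027). Of the 50 named genes with p under 0.05, 20 lost it with limma voom quality weights. At this depth Aatk rests on at most 67 reads a liver.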

Other observations

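The glucocorticoid response and metallothionein list had 7 of 10 genes higher with GKA in PL livers (median log2 0.19) and 1 of 10 higher in PP livers (median −0.62). Without mouse 35 the median in PL livers was −0.03. The difference of effects had p under 0.05 for 3 of the 10, beside 3.35% of all genes. Tsc22d3, a glucocorticoid-induced leucine zipper, differed by 1.04 ± 0.41 (p = 0.0167, adjusted p = 1.0), and in treated PL livers mouse 30 stood at 73.7 CPM with the other 7 at 13.4 to 27.0 CPM. Without mouse 30 its effect in PL went from 0.41 to 0.02. Mt1, a metallothionein, was at 0.60 ± 0.36 in PL and −1.25 ± 0.56 in PP livers.

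Lipid droplet genes had 12 of 17 lower with GKA in PL livers (median −0.06) and 16 of 17 higher in PP livers (median 0.22), with 1 difference at p under 0.05. On the log2(TPM + 1) scale 13 of the 17 were higher in PL livers, and without 1 mouse the median in PL livers ran from −0.13 (mouse 29) to 0.01 (mouse 33). Time of day at harvest was not given in the sources used here. The study describes a short food withdrawal before cull for mice on this diet, and the part of feeding state in these values was not tested.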
